A study of Sus scrofa with 13 samples.

Results

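Longissimus dorsi, the long skeletal muscle of the back, was compared at day 240 after birth with 8 organs of the same age in Guizhou mini-pigs, a small Chinese breed. Its library and those of heart, lung, spleen, liver, kidney, adipose tissue, ovary and testis make up 9 of the 13 libraries of the series, and they were chosen by tissue and age as given in the sample labels. The labels name no treatment and do not say how many animals gave each library. Each tissue had 1 library of total RNA, depleted of ribosomal RNA, so no difference had a replicate check and no test between tissues was possible. Longissimus dorsi at day 0 and day 30, and 2 mixtures of RNA from several breeds and ages (muscle only, or several tissues), were read as further values and did not enter the comparison.

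Skeletal muscle fibres are large cells with many nuclei, packed with sarcomeres in which thick filaments of myosin slide along thin filaments of actin, tropomyosin and troponin. A nerve impulse opens calcium stores in the sarcoplasmic reticulum, calcium binds troponin, and ATP for contraction comes from phosphocreatine, glycolysis and mitochondria. Many of these proteins exist in fast, slow and cardiac forms encoded by separate genes, and the longissimus is known as a muscle rich in fast, glycolytic fibres. Heart is the other striated muscle among the 9 tissues.

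Expression was given as RPKM, the reads on a feature scaled by its length and by the total of reads, for 21607 Ensembl genes and 10813 long non-coding RNAs (lncRNAs) with TCONS identifiers. Whole read numbers were recovered from these values. The total of reads behind RPKM ranged from 21685316 in ovary to 38581416 in testis and was 32641450 in muscle, of which 7154465 (21.9%) were counted on the listed features. In the 8 organs this share lay between 11.6% in spleen and 38.0% in ovary, so equal RPKM did not stand for equal shares of counted reads. Fewer cells of a type and less RNA per cell cannot be told apart in such bulk tissue.

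Differences are given as log2(RPKM + 0.1) of muscle minus the median, the highest or the lowest of the 8 organs, for features that reached RPKM of 1 in 1 or more of the 9 libraries. This scale understates the difference of features with values near 0. A difference was counted from 2-fold, a log2 difference of 1.

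Of 15252 Ensembl genes compared, 203 (1.33%) had at least 2-fold more RPKM in muscle than in the highest of the 8 organs. These 203 genes, chosen by that difference, took 50.04% of the counted reads of muscle, against 4.63% in heart and between 0.394% in liver and 1.11% in spleen in the other 7 organs. Against the median of the organs, 1174 genes (7.7%) were at least 2-fold higher in muscle and 7119 (46.7%) at least 2-fold lower. At the other end, 1224 genes (8.03%) lay at least 2-fold below the lowest organ.

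The split against the median depended on the scale. The median difference over all 15252 genes was -0.89, so the typical gene had lower RPKM in muscle than in the middle of the organs. Genes higher in muscle were 14.2% of those past 2-fold in either direction on the deposited values. When the libraries were brought to 1 median ratio over genes detected in all 9 libraries they were 44.5%, 3037 higher against 3793 lower, and 713 genes were then above the highest organ. The group differences below are therefore read against -0.89 rather than against 0.

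**Figure D1:**
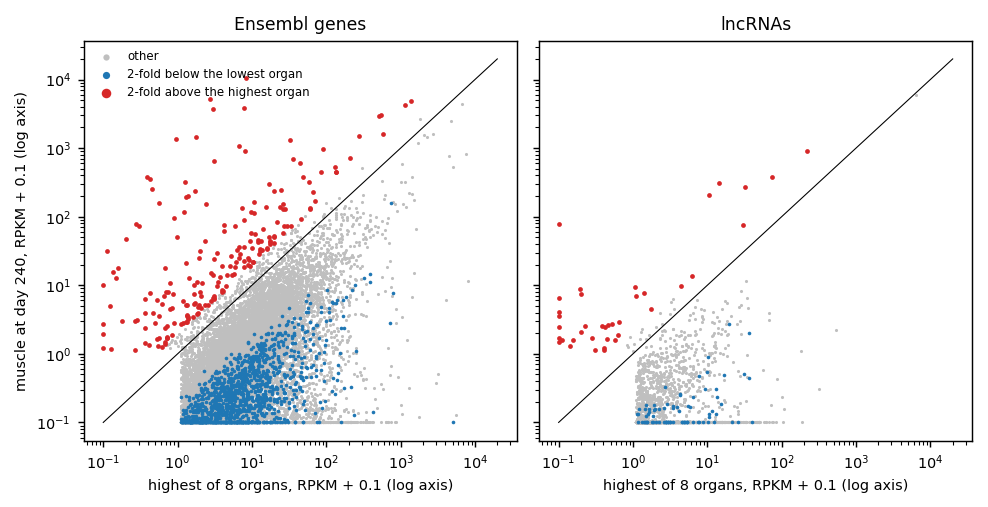
RPKM + 0.1 of each compared Ensembl gene (left) and lncRNA (right) in muscle at day 240 against the highest of the 8 organs, both on log axes, with the line of equality. The 203 genes and 38 lncRNAs at least 2-fold above the highest organ are red, and the 1224 genes and 79 lncRNAs at least 2-fold below the lowest organ are blue.

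The other libraries, treated in the same way against the remaining 8, had between 112 genes (adipose tissue) and 2576 (testis) above their highest neighbour, with 173 in heart and 350 in liver. On the deposited values, muscle was thus among the 3 libraries with the fewest such genes. It was close to liver in genes below the lowest neighbour (1268 in liver), which numbered at most 170 in each of the other 7 libraries. Muscle and liver also had the lowest median ratios, 0.48 and 0.46, against at least 0.77 in the other 7 libraries. With scaling to the same median ratio, muscle had 713 genes above the highest and 542 below the lowest organ. The other libraries were not recounted on that scale.

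The most abundant named transcripts of the muscle library encoded sarcomere proteins, glycolytic enzymes and mitochondrial proteins. TNNC2, the calcium-binding subunit of fast troponin, had the highest RPKM of all Ensembl genes, 10378 (95% Poisson interval 10336 to 10419, counting error only). It stood at 7.47 in heart and 8.11 in adipose tissue, its highest organ, and was at 0 in spleen. This single gene was 3.42% of the counted reads of muscle.

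Next in order of RPKM came an Ensembl gene without a symbol (ENSSSCG00000018006, 5165), TPM1 (4947), COX1 (4406), GAPDH (4325), MYL1 (3798), MYH8 (3695), ACTA1 (2998), TPM2 (2987) and ND1 (2637). COX1 and ND1, subunits of the respiratory chain encoded in mitochondrial DNA, were abundant in other organs as well. COX1 was higher in heart, at 6615, whereas ND1 had 1847 in heart and was highest in muscle among the 9 libraries, by 1.43-fold. GAPDH, a glycolytic enzyme whose processed copies in the genome may share its reads, had 1134 in heart and between 56.1 and 486 in the other 7 organs. TPM1, an alpha-tropomyosin gene used in several cell types, stood at 1392 in heart and between 15.9 and 325 in the other 7 organs.

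Most of the sequence reads on myosin heavy chains fell on a cluster of neighbouring identifiers whose names are uncertain. The identifier named MYH8, a perinatal myosin in mammals, alone took 7.44% of the counted reads of muscle, more than any other feature. Its RPKM was 3695 in muscle, 2.44 in heart and between 0 and 2.87 in the other 7 organs. MYH13, named for a myosin of the eye muscles, stood at 385 against at most 0.283 in an organ, and MYH3, named for the embryonic myosin, at 96.3 against at most 0.808. ENSSSCG00000018003, chosen after its values were seen as an identifier of the same number range, had 1444 against at most 1.64. ENSSSCG00000018006, named above for its RPKM, lies in number between those named MYH8 and MYH3 and had 5165 against at most 2.61. Whether it belongs to a myosin was not tested.

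The adult fast and slow myosins MYH1, MYH2, MYH4 and MYH7 were not paired with an identifier. Myosin heavy chain genes are close copies of each other, so these values show that the reads on these identifiers lay almost wholly in muscle among the 9 tissues, and do not show which myosin they came from. In the day 0 library MYH8 stood at 1888 and in the day 30 library at 2442.

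**Figure D2:**
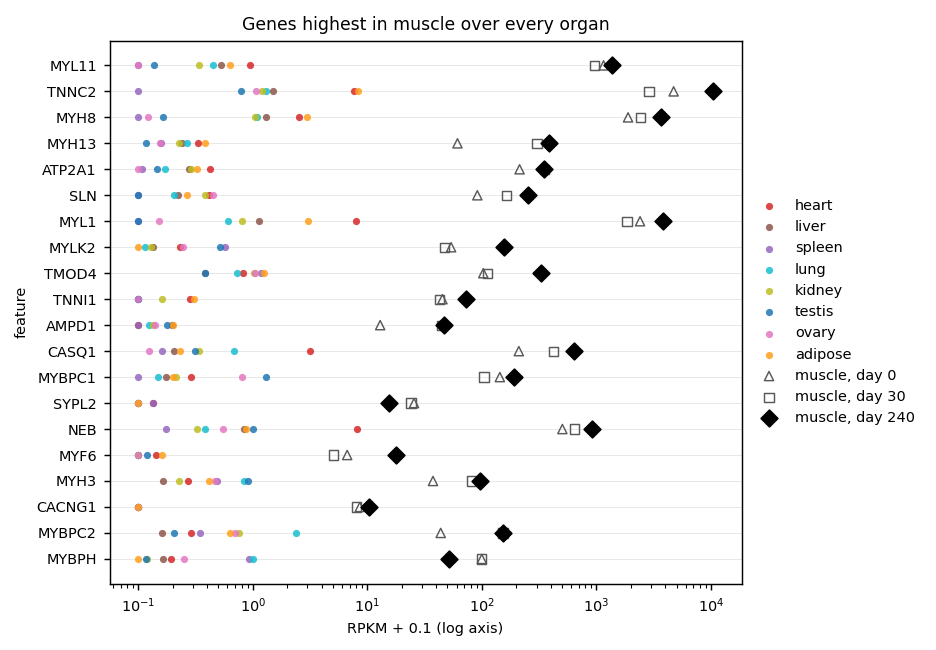
RPKM + 0.1 on a log axis for the 20 Ensembl genes with a symbol that exceeded the highest organ most, in the 8 organs (coloured dots), muscle at day 240 (black diamonds) and muscle at day 0 and day 30 (open triangles and squares). In all 20 the 3 muscle libraries lie to the right of every organ, with organ values of at most 8.11 RPKM.

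Among the 20 genes with a symbol that exceeded the highest organ most, 10 encode parts of the filaments, namely MYL11, TNNC2, MYH8, MYH13, MYL1, TNNI1, MYBPC1, NEB, MYH3 and MYBPC2. The largest difference was that of MYL11, the regulatory light chain of fast myosin, which had RPKM of 1358 in muscle, 0.845 in heart and at most 0.537 in the other 7 organs, a log2 difference of 10.49. The remaining ones handle calcium (ATP2A1, SLN, CASQ1, SYPL2, CACNG1), phosphorylate myosin (MYLK2), cap or lie along filaments (TMOD4, MYBPH), recycle adenine nucleotides (AMPD1) or regulate transcription (MYF6). Their log2 differences to the highest organ ranged from 5.69 for MYBPH to 10.49 for MYL11.

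Gene lists of muscle and of the cell types that a muscle sample can hold were then read, 29 in all. Of 352 symbols, 242 were paired with an identifier. The first 4 members of each list and those that went against the list's median are named by rule, and further members were named after their values were seen. List counts stand beside the shares over all Ensembl genes, 7.7% above and 46.7% below the median organ, 1.33% above the highest organ, and 9.48% above and 30.9% below heart.

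Thick filament genes were higher in muscle than in the median organ in 7 of 8 members compared, and 4 of them exceeded heart as well. The list had a median difference of 8.75 to the median of the organs and of 3.09 to the highest. MYL1, the essential light chain of fast myosin, stood at 3798 in muscle, 7.81 in heart and at most 2.92 elsewhere. MYBPC1 and MYBPC2, the slow and fast myosin-binding proteins C, had 191 and 153 in muscle against at most 1.19 and 2.28 in an organ. Both transcripts were near 0 in heart, at 0.187 and 0.187.

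MYL3, the light chain shared by slow fibres and the ventricle, went the other way between the striated muscles, with 175 in muscle and 1521 in heart. MYH7B, a myosin of low abundance, was also higher in heart, at 28.7 against 2.34. MYOM1 and MYOM2, which link thick filaments at the M-band, were within 2-fold of heart, with 101 and 57.8 in muscle against 89.8 and 87.7 in heart.

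All 10 thin filament genes compared were higher in muscle than in the median organ, and 8 were at least 2-fold above the highest organ. Their list took 13.9% of the counted reads of muscle (95% Wilson interval 13.8 to 13.9%), 2.09% in heart and at most 0.372% in the other 7 organs. ACTA1, skeletal alpha-actin, had 2998 in muscle and 538 in heart, a 5.57-fold difference, and at most 2.91 elsewhere. NEB, the giant protein nebulin that runs along the thin filament, had 911 in muscle, 8.03 in heart and at most 0.912 in the other organs. TMOD4, which caps thin filaments of skeletal muscle, had 325 against at most 1.16.

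The troponin genes separated skeletal from cardiac forms. TNNI1 and TNNT1, the slow troponins I and T, had 72.7 and 987 in muscle against 0.186 and 89.2 in heart. TNNC1, the troponin C that slow fibres share with the heart, had 383 in muscle and 1408 in heart and was at most 0.426 in the other organs. The fast form TNNC2 was therefore far more abundant in muscle than the slow and cardiac form, and the reverse was seen in heart. TNNT2, the cardiac troponin T, had 6.07 in muscle and 4075 in heart.

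All 13 genes of the Z-disc and titin list were higher in muscle than in the median organ, by a median of 6.83, and 6 exceeded the highest organ. The median difference was 0.79 to the highest organ and 1.86 to heart. ACTN2, the alpha-actinin that anchors thin filaments, had 129 in muscle and 137 in heart, and DES, the intermediate filament desmin, 515 and 298. MYOZ1, a calsarcin of fast fibres, had 112 in muscle and 0.0990 in heart, with testis as its highest organ at 10.7. TCAP, the titin cap, was the opposite, with 25.01 in muscle and 192 in heart.

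**Figure D3:**
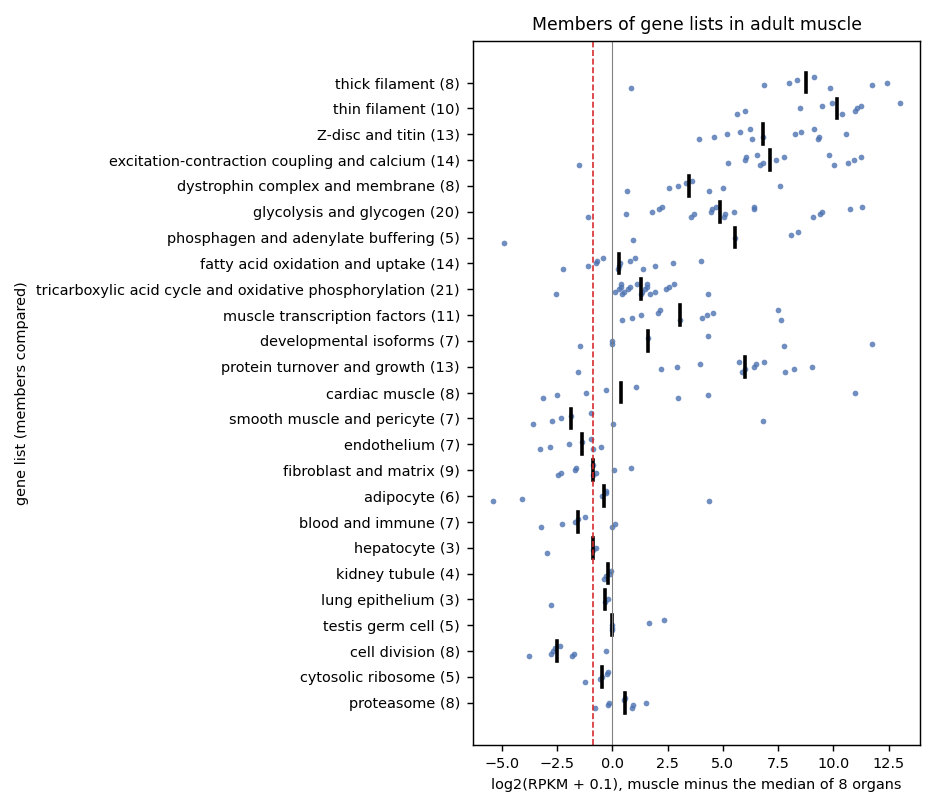
Log2(RPKM + 0.1) of muscle at day 240 minus the median of the 8 organs for each compared member (blue points) of the gene lists with at least 3 members compared, with the list median as a black bar, the median over all 15252 Ensembl genes (-0.89) as a dashed red line and 0 as a grey line. The contractile, calcium and glycolytic lists lie to the right, up to a median of 10.17 for the thin filament, and the medians of the cell division (-2.48), smooth muscle (-1.87), blood (-1.54) and endothelial (-1.36) lists lie left of the dashed line.

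Calcium handling set muscle apart from heart more clearly than the Z-disc did. Of 14 members of the excitation-contraction coupling and calcium list, 13 were above the median of the organs, 11 were above the highest organ and 11 were above heart, with a median difference of 5.36 to heart. ATP2A1, the fast calcium pump SERCA1, had 351 in muscle, 0.326 in heart and at most 0.227 in the other organs. CASQ1, the calcium store protein of fast fibres, had 642, 3.03 and at most 0.587. CACNA1S, the voltage sensor of skeletal muscle, had 25.2 in muscle and 1.83 in heart.

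SLN, sarcolipin, an inhibitor of the calcium pump, had 253 in muscle and at most 0.351 in an organ. CACNG1, the gamma subunit of the skeletal calcium channel, was at 0 in all 8 organs and at 10.1 in muscle (376 reads), at least 83.3-fold higher than the value that 3 reads would have in the organ library with the fewest reads. PVALB, a calcium buffer of fast fibres, was modest at 7.77 but was at 0 in heart. ASPH was the 1 member of the list below the median organ, with 0.347 in muscle and 1.18 in the median organ. It encodes both junctin of the calcium store and a widespread hydroxylase, and RPKM of the whole gene does not separate them.

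Genes of the dystrophin complex and fibre membrane were higher in muscle by a smaller margin. Of 8 members, 7 were above the median organ, by a median of 3.46, and 2 were above the highest organ, ANO5 and BIN1. DMD, dystrophin, had 76.1 in muscle, 41.9 in heart and at most 18.4 in the other 7 organs, of which the lowest was 1.26. BIN1, which shapes the membrane tubules that carry the impulse inward, had 135 in muscle and 0.757 in heart. SGCA and SGCB, the sarcoglycans alpha and beta, had 2.36 and 14.7 in muscle against 1.55 and 4.02 in heart.

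The neuromuscular junction was barely seen. Of 6 members paired with an identifier, CHRNA1, CHRNE and ACHE, 2 acetylcholine receptor subunits and the esterase, were at 0 in muscle. MUSK, the kinase that clusters the receptors, had 0.167, and LRP4, its co-receptor, was the only member compared and had 0.0647 in muscle and 2.70 in lung. In this library 3 reads would give a gene of 1 kb an RPKM of 0.0919, and longer genes proportionally less, which limits what a value of 0 can show.

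Fuel use separated muscle from heart along the pathway. Glycolysis and glycogen genes were higher in muscle than in the median organ in 18 of 20 members, and 15 exceeded the highest organ. Against heart alone 19 of 20 were at least 2-fold higher, with a median difference of 2.83. The list took 6.25% of counted reads in muscle and 0.978% in heart.

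Along the pathway, PYGM, the muscle glycogen phosphorylase, had 689 in muscle, 35.3 in heart and at most 2.47 elsewhere. PGAM2 and ENO3, the muscle forms of phosphoglycerate mutase and enolase, had 130.4 and 1499 in muscle against 20.3 and 273 in heart. PFKM, the muscle phosphofructokinase, had 229 in muscle and 66.1 in heart. These steps were all several-fold above heart and, apart from PGAM2 (highest in testis at 27.8), had heart as their highest organ.

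The widest gap between the striated muscles in this list, among genes detected in heart, was LDHA, the subunit of lactate dehydrogenase known from fast muscle. It had 1301 in muscle and 4.86 in heart, a 268-fold difference, and at most 32.3 in the other organs. FBP2, the muscle fructose bisphosphatase, was at 0 in heart and 61.0 in muscle. PKM, a pyruvate kinase, had 721 in muscle and 211 in ovary, its highest organ.

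Not every gene of this list exceeded the highest organ. HK2, the hexokinase of insulin-sensitive tissues, had 2.18 in muscle and 6.54 in adipose tissue. GBE1, the glycogen branching enzyme, was below the median organ, with 1.88 against 4.19, a difference of -1.10 that became 0.26 with scaling to the median ratio. GPI and UGP2 were above the median organ and highest in ovary.

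**Figure D4:**
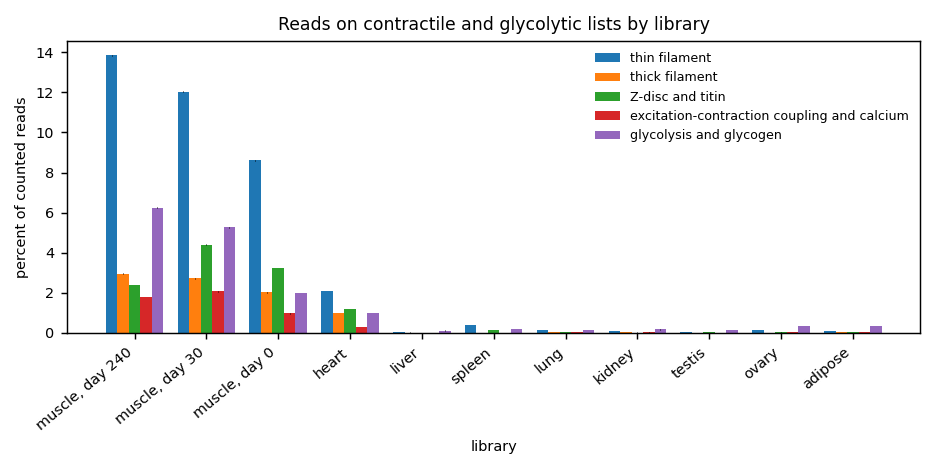
Percent of the counted reads that fell on 5 gene lists in muscle at day 240, day 30 and day 0 and in the 8 organs, as bars from 0 with 95% Wilson intervals (counting error only, too narrow to see). Muscle at day 240 reached 13.9% for the thin filament and 6.25% for glycolysis and glycogen, heart 2.09% and 0.978%.

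Of the phosphagen and adenylate genes, CKMT2, the mitochondrial creatine kinase, did not differ beyond counting error between the striated muscles, at 58.1 in muscle (95% Poisson interval 55.9 to 60.3) and 58.9 in heart. AK1, adenylate kinase, had 139.7 and 16.2, and AMPD1, the AMP deaminase of skeletal muscle, 46.6 and 0. CKB, the brain-type creatine kinase, was at 0 in muscle and at 2.95 in the median organ. CKM, the muscle creatine kinase, was not paired with an identifier.

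Fatty acid genes were above the median gene by a smaller margin. In this list 5 of 14 members were above the median organ, 2 were below it, none was above the highest organ and 7 were at least 2-fold below heart. The list had a median of 0.31, or 1.20 relative to all genes, against 5.75 for the glycolysis and glycogen list. CPT1B, which admits fatty acids to mitochondria in muscle and heart, had 7.83 in muscle and 34.6 in heart. ACADM and HADHA, enzymes of beta-oxidation, had 42.9 and 47.9 in muscle against 51.9 and 84.9 in heart. CPT2 and UCP2 were below the median organ, at 0.508 and 0.0926 against 1.21 and 0.856. UCP3, an uncoupling protein of muscle, had 1.85 in muscle, 0.0163 in heart and 3.82 in adipose tissue.

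Genes of the tricarboxylic acid cycle and oxidative phosphorylation lay between these patterns. Of 21 members, 12 were above the median organ, by a list median of 1.29, while the median difference to heart was -0.59, against -0.31 over all genes. IDH2 and OGDH, enzymes of the cycle, had 68.5 and 16.3 in muscle against 89.7 and 30.1 in heart. SUCLA2, a subunit of succinyl-CoA synthetase, was the 1 member above the highest organ, with 43.9 in muscle and 17.6 in ovary. COX8A, a cytochrome oxidase subunit, was the 1 member below the median organ, with 0.836 against 5.36.

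Transcription factors of muscle were higher in muscle than in the median organ in 9 of 11 members compared, and 6 exceeded the highest organ. MYF6, the myogenic factor of adult fibres, had 17.7 in muscle and at most 0.0596 in an organ. MYOD1, which starts the muscle programme, was at 0 in all 8 organs and at 0.877 in muscle, under the RPKM of 1 needed to be compared. MEF2A had 4.76 in muscle and 9.10 in ovary. MEF2C, SIX4, TEAD1, SMYD1 and VGLL2 were the other members above the highest organ, of which VGLL2 was at 0 in every organ and at 1.85 in muscle. Markers of satellite cells, the stem cells of muscle, were close to 0, with 0.0322 for MYF5, 0.0103 for CALCR and 0.199 for CDH15, while CHRDL2 was at 0.0278.

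Protein turnover genes were shared with heart. Of 13 members, 12 were above the median organ, by a median of 6.01, yet 3 exceeded the highest organ. FBXO32 and TRIM63, ubiquitin ligases of muscle wasting, had 34.5 and 205 in muscle against 57.7 and 315 in heart. MSTN, myostatin, the secreted brake on muscle growth, had 5.20 in muscle, 0.515 in heart and at most 0.332 in the other organs. IGF1, a growth factor, was below the median organ at 3.004 against 9.18, a difference of -1.57 that became 0.12 with scaling to the median ratio.

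Isoforms of development and of the heart marked where muscle and heart part. All 8 cardiac genes compared were at least 2-fold higher in heart, with a median difference of -5.80 of muscle to heart. The other list of this kind, of developmental isoforms, had 4 of 7 members above the median organ, 1 below it (NCAM1, a cell adhesion molecule, 0.346 against 1.38) and 5 below heart. The other 2, the identifiers named MYH8 and MYH3, were above heart. This list took 7.71% of the counted reads in muscle and 2.07% in heart. In muscle the identifier named MYH8, whose name is uncertain, alone took 7.44%, so the share does not show the level of developmental isoforms. MYL4, an embryonic and atrial light chain, was at 0 in muscle and 2.42 in heart. MYBPC3, the cardiac myosin-binding protein C, had 0.405 in muscle and 236 in heart, and RYR2, the cardiac calcium release channel, 0.519 and 121. ACTC1, cardiac alpha-actin, had 0.939 and 229. MYH6, the cardiac alpha-myosin, was the exception in level, with 768 in muscle and 4521 in heart. Its close copy MYH7, the myosin of slow fibres, had no paired identifier, so reads of the 2 genes may not be told apart.

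With heart left out, 329 Ensembl genes (2.16%) were at least 2-fold above both the median of the 8 organs and the highest of the remaining 7. Of these, 203 were also above heart and 126 were not, 27 of the latter with heart at least 2-fold higher than muscle. By highest other organ, 77 of the 203 genes were counted under heart, followed by testis (39), ovary (32), lung (19), adipose tissue (17), spleen (11), liver (5) and kidney (3). The 77 include 4 genes with all 8 organs at 0, where no organ was highest.

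Lists of dividing cells and of other cell types were read next. Cell division genes had the lowest median of the lists, -2.48, with 7 of 8 members at least 2-fold below the median organ, against 46.7% of all genes. MKI67 and TOP2A, which mark dividing cells, had 0.202 and 0.257 in muscle against 1.05 and 2.23 in the median organ. CDK1 was at 0 in muscle.

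The smooth muscle and pericyte list had a median of -1.87, with 2.28 for MYH11 against 138 in spleen, and 1 member higher in muscle, DES, which fibres themselves make. The endothelial list had a median of -1.36, or -0.48 relative to all genes, with 4 of 7 members at least 2-fold below the median organ, a share not far from the 46.7% of all genes, and a summed RPKM of 11.3 in muscle against 12.0 to 84.5 in the organs. The blood and immune list had 5 of 7 members below, with a median of -1.54, a summed RPKM of 10.95 in muscle and of 4.15 to 143 in the organs, and 0.803 for PTPRC, the common leukocyte antigen, against 61.7 in spleen.

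The fibroblast and matrix list had a median of -0.87 on the deposited scale and 0.0082 after scaling to the median ratio, with 3.61 for COL1A2 in muscle and 309 in adipose tissue. The adipocyte list had a median of -0.39, which became 0.30 after the same scaling. SCD and FASN, which desaturate and make fatty acids, had 0.395 and 0.161 in muscle against 717 and 131 in adipose tissue, while PLIN4, a lipid droplet protein, reached 7.77 in muscle and 10.7 in adipose tissue. The cytosolic ribosome and proteasome lists had medians of -0.49 and 0.56, and 0.30 and 1.34 with median-ratio scaling. Relative to all genes the deposited values gave 0.40 and 1.45, and 1 of the 8 proteasome genes compared was at least 2-fold above the median organ. With scaling to the same total the list medians were -0.95 and -0.15.

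Markers that define other organs were at or near 0 in muscle, apart from the oocyte marker GDF9. All 4 kidney tubule markers (summed RPKM 265 in kidney) and all 3 lung epithelium markers (1200.2 in lung) were at 0. The 4 hepatocyte markers summed to 0.0562 in muscle and 5959 in liver, and the 5 germ cell markers to 0.620 and 4667 in testis. The 3 Schwann cell and nerve markers summed to 0.140 in muscle. Of the 2 oocyte markers, ZP3 was at 0 and GDF9 at 1.40, against 2.58 in ovary. Against this, the fibre markers ACTA1, MYL11, TNNC2, CACNA1S and CASQ1 were each higher in muscle than in every organ, as given above, and CKM, MYH1, MYH2, MYH4, MYH7, TNNT3 and RYR1 were not paired with an identifier.

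The genes that muscle had least of were of mixed function. Among genes with RPKM of at least 1 in all 8 organs, the largest falls below the lowest organ, in order, were those of APOE, DBNL, SRSF9, MYO9B, ABHD17A, SLC4A2, RENBP, C7, SFRP1 and LRPAP1. APOE, an apolipoprotein made by liver and macrophages, had no read in muscle and between 2.12 in kidney and 5041 in liver. Muscle was thus at least 25.4-fold lower than the lowest organ at a floor of 3 reads. DBNL, an actin-binding adaptor, had 0.210 (16 reads) against 4.93 to 19.5 in the organs. MYO9B, an unconventional myosin that is not part of the sarcomere, had 0.126 against 3.04 to 28.3.

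SRSF9, a splicing factor, had no read in muscle and 1.33 to 37.8 in the organs. C7, a complement component, had 0.321 against 3.67 to 48.7, and SFRP1, a secreted Wnt inhibitor, 0.0778 against 1.48 to 9.42. ABHD17A and RENBP had 1 read each and SLC4A2 had 3 reads, with Poisson intervals that reached 0.109, 0.123 and 0.0678 RPKM, all below the lowest organ (1.43, 1.20 and 1.21). LRPAP1, a receptor chaperone, had 0.764 against at least 7.36. In all, 3103 of the compared genes (20.3%) were at 0 in muscle.

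LncRNAs were fewer and lower in level. Of 3346 compared, 157 (4.69%) were at least 2-fold above the median of the organs, 730 (21.8%) below it, 38 (1.14%) above the highest organ and 79 (2.36%) below the lowest. In muscle, 2483 of the 3346 lncRNAs (74.2%) were at 0 and 160 reached RPKM of 1. The median difference to the median of the organs was 0, because most lncRNAs compared were near 0 both in muscle and in the median organ. In testis 1626 of them were at least 2-fold above the other 8 libraries, against 40 to 280 in the other organs. Without testis and ovary 1363 lncRNAs were compared, 121 above and 531 below the median, with a median difference of -0.54. In each organ, at most 52 lncRNAs lay at least 2-fold below the other 8 libraries. The 38 lncRNAs above the highest organ took 0.451% of the counted reads of muscle, 0.0813% in heart and at most 0.00955% in the other 7 organs.

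The largest difference belonged to TCONS_00811385, which was at 0 in all 8 organs and at 77.1 in muscle (717 reads, 95% Poisson interval 71.5 to 82.9), at least 159-fold higher at the floor of 3 reads per library. TCONS_00579228, TCONS_00319853, TCONS_00006659 and TCONS_00030956 were also at 0 in all organs, with 6.40, 3.91, 3.50 and 2.40 in muscle. On the same floor they were at least 17.7-, 30.3-, 6.86- and 3.54-fold higher. TCONS_00177241 was found in adipose tissue alone of the organs, at 0.0944, and at 8.68 in muscle, and TCONS_00842621 had 7.45 in muscle and at most 0.103 in an organ.

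The muscle libraries of other ages differed in these lncRNAs. TCONS_00811385 stood at 94.5 at day 0 and 60.0 at day 30, near its level at day 240. TCONS_00177241 and TCONS_00842621 were lower at day 0, with 0 and 0.769, whereas TCONS_00579228 and TCONS_00030956 were higher, with 19.7 and 8.64. A restriction against the 8 organs thus went with different levels across the 3 muscle libraries.

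**Figure D5:**
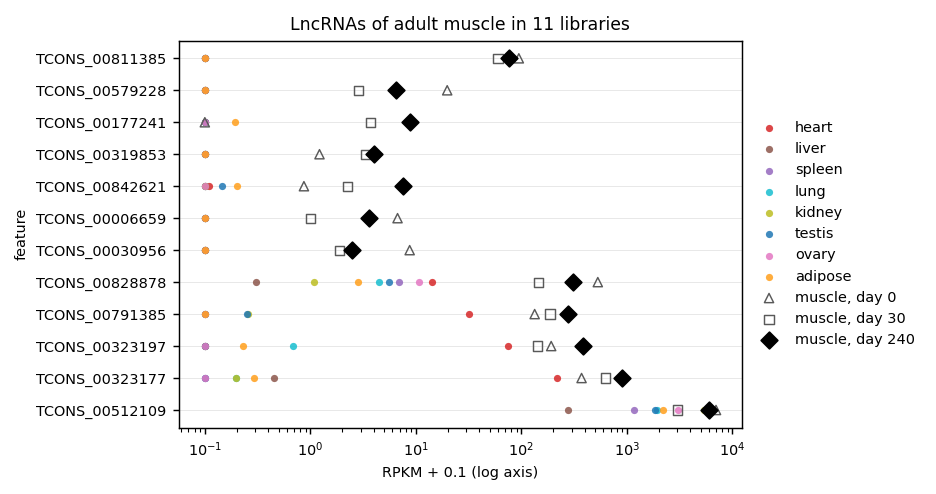
RPKM + 0.1 on a log axis for the 12 lncRNAs named by difference or abundance, in the 8 organs (coloured dots), muscle at day 240 (black diamonds) and muscle at day 0 and day 30 (open triangles and squares). From the top, 7 lncRNAs have organ values of at most 0.103 RPKM, 3 have heart as the only organ above 1, and TCONS_00512109 at the bottom is abundant in all tissues.

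The 5 most abundant lncRNAs of muscle were all detected in heart, and all but TCONS_00512109 were several-fold higher in muscle. TCONS_00512109 led with 6038, but it had 6380.0 in heart and between 278 in liver and 5375 in the other 7 organs. It alone took 1.61% of the counted reads of muscle. TCONS_00323177, TCONS_00323197 and TCONS_00791385 had 893, 383 and 275 in muscle, 219, 74.1 and 32.0 in heart and at most 0.590 in any other organ. TCONS_00828878 had 309.5 in muscle, 14.1 in heart and 0.209 to 10.7 in the other organs.

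Of the 3346 lncRNAs, 205 (6.13%) were at least 2-fold above heart and 617 (18.4%) below it. Among the 38 lncRNAs above every organ, 24 were counted with heart as the highest other organ. These 24 include 7 lncRNAs with all 8 organs at 0, where no organ was highest. With heart left out, 51 lncRNAs (1.52%) were above both the median of the 8 organs and the highest of the remaining 7, of which 38 were above heart and 6 were at least 2-fold higher in heart. The lncRNAs furthest below the median organ were TCONS_00265881, TCONS_00636348 and TCONS_00821491, all without a read in muscle, with 5.18, 3.04 and 2.71 in the median organ.

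The muscle and tissue mixtures, which share no library with the comparison, allowed the direction of these genes to be read in other RNA. Only features with RPKM of 1 in 1 or both mixtures were read. A feature low in the tissue mixture thus entered only if it was high in the muscle mixture, which raises the shares higher in muscle. Of the 203 genes above the highest organ, 192 reached RPKM of 1 in a mixture, and 123 of these (64.1%) were at least 2-fold higher in the muscle mixture, against 7.14% of all 13674 genes compared there. Only RABGGTA and XCL1 were at least 2-fold lower. The median difference was 1.39 for the 192 genes and -0.70 for all genes. Of 1180 genes below the lowest organ, 796 (67.5%) were at least 2-fold lower in the muscle mixture, against 41.4% of all, and 7 were higher.

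Among lncRNAs, 24 of the 38 reached RPKM of 1 in a mixture, and 22 of them (91.7%) were at least 2-fold higher in the muscle mixture. The share over all 823 compared was 16.6%, and the median difference of the 24 was 2.52. The rest of the 38 were under the filter and gave no direction, so the 91.7% is partly set by the filter. Of 57 lncRNAs below the lowest organ, 31 (54.4%) were at least 2-fold lower in the muscle mixture, against 36.6% of all, and 2 were higher. TCONS_00811385 had 771 in the muscle mixture and 264 in the tissue mixture. The tissue mixture was not free of muscle genes. ACTA1 stood at 1365 there and at 3069 in the muscle mixture. TCONS_00512109, the most abundant lncRNA of muscle, had 47.1 in the muscle mixture and 3.29 in the tissue mixture, far below every one of the 9 tissues. The reason was not tested.

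No counts against the organs were made for the muscle libraries of earlier ages, since they would share the same 8 organ libraries. In them the 203 genes, which were chosen for their values at day 240 and so favour that library, took 28.3% of the counted reads at day 0 and 46.2% at day 30, compared with 50.04% at day 240. TNNC2 stood at 4717 at day 0, 2877 at day 30 and 10378 at day 240. LDHA had 214, 489.5 and 1301, and PYGM 139, 435 and 689. MYBPH, a myosin-binding protein, had its lowest value at day 240, with 99.6, 99.7 and 51.2.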

How the data were processed

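Total RNA of longissimus dorsi and 8 organs at day 240 was compared, with 1 library each and groups taken from the sample labels. The authors deposited RPKM, counted with htseq-count. The submitters' processing notes name TopHat 1.3.2 and Cufflinks. The libraries were strand-specific (SMART or dUTP), without the protocol of each, and the genome build is not given in the sources used here.

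Whole reads were recovered from the steps of the RPKM values for 29462 of 29462 features above 0 (tolerance 0.0001), after a test on simulated data. Intervals (Poisson for RPKM, Wilson for shares, 95%) and the floor of 3 reads cover counting error only. Levels were compared as log2(RPKM + 0.1) where 1 or more of 9 libraries reached RPKM of 1. Symbols came from a gene table (11654 identifiers) and the study's supplement (213), so 9649 of 15252 compared genes had one.

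Genes were named by rule: the 10 highest in muscle, the 20 with a symbol and RPKM of at least 1 furthest above the highest organ, the 10 with a symbol and RPKM of at least 1 in every organ furthest below the lowest organ, the first 4 members of each list with those against its median, and for lncRNAs the 8 furthest above the highest organ (RPKM of at least 1), the 5 most abundant and the 3 furthest below the median. Some list members are not reported here by name. The members and lists were chosen with earlier results of these data known. Sequences were not used here. Alternatives were other pseudocounts, filters, scalings, fold limits and sets of organs. Python 3.11.15, numpy 2.4.6, pandas 2.3.3 and scipy 1.17.1 were used.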

Additional observations from a re-analysis of the deposited data

Results flagged for a closer look

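In 2 genes the muscle library at day 240 lay at least 2-fold above every organ while the muscle mixture lay at least 2-fold below the tissue mixture, so that the contrast of muscle with other tissue had opposite directions in the 2 sets of libraries. The difference was not tested. RABGGTA, a subunit of the enzyme that attaches lipid anchors to Rab proteins, had RPKM of 3.41 in muscle (199 reads) and 1.24 in lung, its highest organ, against 0.851 in the muscle mixture and 2.26 in the tissue mixture, a log2 difference of -1.31. XCL1, a chemokine of lymphocytes, had 2.74 in muscle (31 reads) and 0.397 in kidney, its highest organ, against 0.0917 and 1.23 in the mixtures, a log2 difference of -2.79.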

How the results depend on the processing

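Counts past the limit are given in the order above the median, below the median, above the highest and below the lowest organ. With a pseudocount of 1 in place of 0.1, 2626 Ensembl genes were below the median and 149 below the lowest, and 62, 104 and 4 lncRNAs were above the median, below it and below the lowest. With 0.01, 1972 genes were below the lowest, and 1149 and 140 lncRNAs below the median and the lowest. Without the filter, 332, 1098 and 74 lncRNAs were above the median, below it and above the highest. With RPKM of at least 10 the counts were 640, 2663, 129 and 463 genes and 16, 102, 8 and 17 lncRNAs. With the same median ratio they were 3037, 3793, 713 and 542 genes and 323, 471, 98 and 45 lncRNAs. Without heart 325 genes, and without testis and ovary 359, were above the highest organ. With a limit of 8-fold they were 347, 924, 71 and 32 genes and 49, 79, 18 and 2 lncRNAs. Scaling to the same total and setting values under 3 reads to 3 reads (the latter, like all alternatives for the lowest organ, chosen after seeing the data) left all 8 counts within 1.5 times.

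Of 1362 alternative values of named features and lists, 1359 kept their direction or were under 2-fold. Their size was less stable, with 709 near the main value and 650 moved. A feature was called moved past the half-width of its Poisson interval in muscle (or past 1 without reads), a list from a log2 change of 1. With the same median ratio, 148 of 227 values moved. With the same median ratio, GBE1 and IGF1 turned to 0.26 and 0.12 against the median organ, and the proteasome list to 0.35 against the highest organ. The cause of these shifts was not tested. With 1 library per tissue, no value covers differences between animals or library protocols, and genes with few reads in muscle are limited by depth. No replicate could be left out. No paired analysis was possible because each group had 1 library.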
